A study of Homo sapiens with 6 samples.

Results

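MME (neprilysin) and 9 other peptidases that cleave peptide hormones were followed in RNA of the H2452 line, established from a pleural mesothelioma. The 10 genes, MME, ECE1, THOP1, NLN, ANPEP, ERAP1, LNPEP, ENPEP, ACE and DPP4, were taken by symbol from the 58735 genes of the deposited tables. They were chosen by the measured difference in RNA between the 2 groups, so their values are given as a description without a test. The experiment asked what loss of NF2, the tumour suppressor that encodes Merlin and restrains YAP and TAZ in the Hippo pathway, does to the transcriptome of these cells. One group of 3 libraries (sgCtrl) came from cells carrying Cas9 with a scrambled sgRNA, and the other group of 3 (sgNF2-1, genotype NF2-KO) from cells carrying Cas9 with a guide against NF2. Both groups were grown in RPMI-1640 with fetal bovine serum and received the vector by lentivirus, and the mCherry-positive cells were sorted. The sgNF2-1 cells are thus a sorted population made with 1 guide, and not a stated clone, so other NF2 guides and lines are outside these data.

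Peptide hormones signal for as long as they stay intact, and peptidases at the cell surface or in the cytosol end or alter that signal. Neprilysin (CD10) and endothelin-converting enzyme 1 are membrane-bound zinc metallopeptidases of family M13. Neprilysin breaks down natriuretic peptides, substance P, enkephalins, bradykinin and endothelins, whereas ECE1 makes active endothelin from its precursor. Thimet oligopeptidase (THOP1) and neurolysin (NLN), of family M3, cut short peptides such as bradykinin and neurotensin. The aminopeptidases of family M1 trim peptides from the amino end, ACE of family M2 releases angiotensin II and degrades bradykinin, and DPP4 (CD26) is a serine peptidase that inactivates incretins.

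The active sites were read from GENCODE 29 transcripts (GRCh38), using for each gene the complete protein-coding transcript with the longest reading frame. They are shown because they separate the 9 zinc enzymes from DPP4 and show which members are close relatives. Capitals mark the codons of the zinc-binding signature His-Glu-x-x-His or, in DPP4, those around the catalytic serine, with 15 coding bases in lower case on each side, 5′ to 3′.
MME (codons 584 to 588 of 750): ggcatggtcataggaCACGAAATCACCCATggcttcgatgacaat
ECE1 (codons 591 to 595 of 842): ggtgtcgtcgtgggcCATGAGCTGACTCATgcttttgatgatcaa
THOP1 (codons 473 to 477 of 689): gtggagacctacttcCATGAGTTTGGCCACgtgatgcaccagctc
NLN (codons 497 to 501 of 704): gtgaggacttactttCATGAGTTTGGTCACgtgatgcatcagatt
ANPEP (codons 388 to 392 of 967): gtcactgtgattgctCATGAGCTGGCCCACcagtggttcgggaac
ERAP1 (codons 353 to 357 of 948): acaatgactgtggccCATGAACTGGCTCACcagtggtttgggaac
LNPEP (codons 464 to 468 of 1025): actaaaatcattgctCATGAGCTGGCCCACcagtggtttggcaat
DPP4 (codons 628 to 632 of 766): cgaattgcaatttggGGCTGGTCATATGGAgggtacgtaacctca
The MME window lies in exon 18 of 23 of its transcript, at chr3:155166976-155167020 on the plus strand. The ECE1 window lies in exon 16 of 20, at chr1:21227160-21227204 on the minus strand. The THOP1 window (chr19:2808391-2808435) and the NLN window (chr5:65792602-65792646) lie on the plus strand in exon 9 of 13 of their transcripts. The windows of ANPEP, ERAP1 and LNPEP span the junction of exons 6 and 7, and that of DPP4 spans exons 21 and 22. ACE carries the signature at 2 places, codons 390 to 394 and 988 to 992 of 1306, and ENPEP at codons 393 to 397 of 957.

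The reading frames of THOP1 and NLN encoded identical residues at 63.4% of 680 aligned positions. ERAP1 and LNPEP were identical at 47.6% of 903 positions and MME and ECE1 at 40.3% of 727. ANPEP shared 35.5% with LNPEP and 35.3% with ERAP1. Close relatives thus include a pair that was higher together (THOP1 and NLN), a pair that was lower together (ERAP1 and LNPEP), and a pair that was not (MME and ECE1), as the values show.

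Total counts ran from 14782423 to 17416463 per library, and no 2 libraries were alike within sampling noise. NF2 itself was at 71.4 ± 3.36 CPM (SD, n = 3) in sgCtrl and 44.2 ± 6.77 CPM in sgNF2-1, which are counts scaled to the TMM-adjusted library total, a log2 difference of -0.69 (SE 0.10, adjusted p = 7.9e-06 by edgeR's quasi-likelihood test), and all 3 sgNF2-1 libraries were lower. Of 9 mesothelial markers 8 passed the filter on low counts, KRT5 being at 3 counts or fewer. Of these 8, 2 were called higher and 3 lower, beside 17.7% and 16.6% of all tested genes. Nothing in the labels tells whether the 3 libraries of a group came from separate cultures, though the paper calls its data biological replicates, so the p-values measure the spread between these libraries. In RNA from a bulk population, fewer expressing cells and less RNA per cell cannot be told apart.

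Of the 10 peptidases, 8 passed the filter and ACE and ENPEP did not. MME, NLN and THOP1 were higher in sgNF2-1 and ANPEP, DPP4, LNPEP, ERAP1 and ECE1 lower, with no overlap between the groups in any of the 8. The groups likewise did not overlap, with sgNF2-1 higher, in 23.2% of all 14179 tested genes and, with sgNF2-1 lower, in 22.2%, and since this contrast chose the members nothing is read from their counts. At an adjusted p under 0.05 by edgeR's quasi-likelihood test with Benjamini-Hochberg adjustment, the rule used for genes outside the 10, 17.7% of all tested genes were called higher and 16.6% lower. The median log2 difference of the 8 was -0.26, beside -0.0025 over all tested genes, whose quartiles were -0.28 and 0.25. Nothing is read from this median either, as the same contrast chose the 8.

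**Figure D1:**
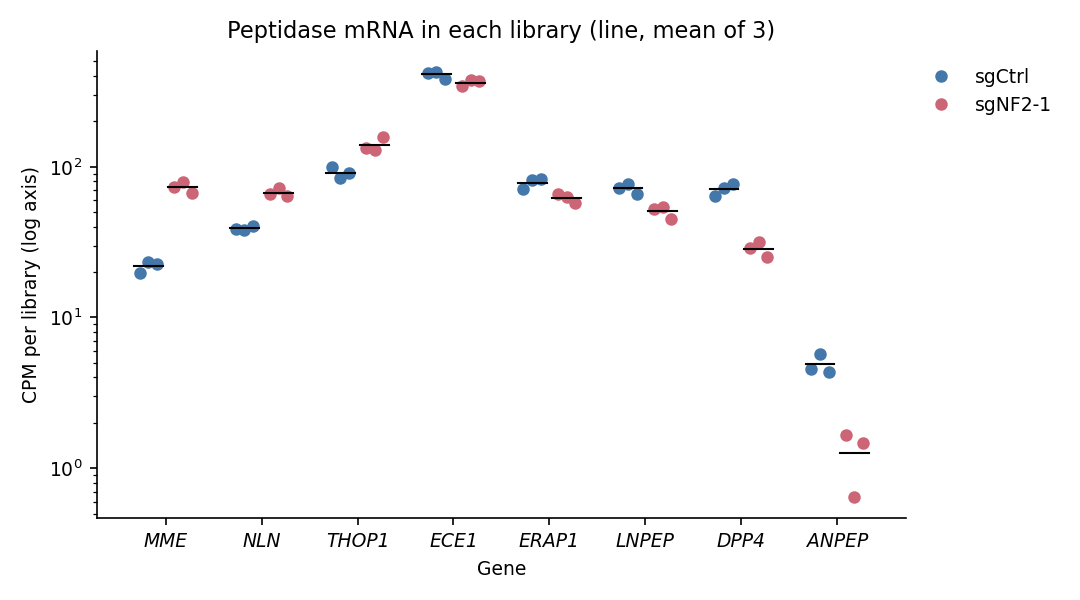
CPM (log axis) of the 8 peptidases that passed the filter, one point per library, sgCtrl in blue and sgNF2-1 in red, with a line at the mean of 3. MME went from a mean of 21.9 to 73.1 CPM, ANPEP from 4.88 to 1.26 CPM, and ECE1 stayed the most counted of the 8.

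MME (ENSG00000196549, chr3:155024124-155183729) was counted 311, 385 and 342 times in sgCtrl replicates 1 to 3 and 1294, 1219 and 953 times in sgNF2-1 replicates 1 to 3. These were 19.7, 23.5 and 22.5 CPM against 73.5, 79.0 and 66.9 CPM, so that the lowest sgNF2-1 library stood 43.5 CPM above the highest sgCtrl library. The coefficient of variation was 8.85% in sgCtrl and 8.26% in sgNF2-1. The mean in sgNF2-1 was 3.34-fold that in sgCtrl, and the fitted log2 difference was 1.74 (SE 0.10). Among the tested genes, the FPKM level of MME moved from percentile 37.2 in sgCtrl to percentile 64.0 in sgNF2-1. Its antisense transcript MME-AS1, which overlaps the 3′ part of the locus, had 2 counts in sgNF2-1 replicate 1 and 0 in the other 5 libraries.

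ECE1 (ENSG00000117298), the other M13 member, was the most abundant of the 10 in every library. It stood at 419.4, 425.6 and 385.2 CPM in sgCtrl and 341.9, 375.8 and 368.9 CPM in sgNF2-1. The groups were 9.39 CPM apart at their nearest libraries, and the log2 difference was -0.18 (SE 0.08). Within a library, the FPKM of MME was 0.0408 ± 0.00449 (SD, n = 3) of that of ECE1 in sgCtrl and 0.154 ± 0.0139 in sgNF2-1. This ratio ran from 0.0359 to 0.0446 in sgCtrl and from 0.138 to 0.164 in sgNF2-1.

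Both M3 oligopeptidases were higher in sgNF2-1. NLN (ENSG00000123213) was at 38.8, 38.3 and 40.2 CPM in sgCtrl and 66.4, 71.9 and 64.0 CPM in sgNF2-1, a log2 difference of 0.79 (SE 0.09). THOP1 (ENSG00000172009) was at 99.2, 84.1 and 91.5 CPM in sgCtrl and 133.7, 128.7 and 158.7 CPM in sgNF2-1, a log2 difference of 0.62 (SE 0.09). No library of either gene crossed into the other group. NLN was the steadier, with a coefficient of variation of 2.48% in sgCtrl and 5.93% in sgNF2-1, beside 8.24% and 11.4% for THOP1. The ratio of NLN to THOP1 in FPKM was 0.292 ± 0.0228 in sgCtrl and 0.332 ± 0.0531 in sgNF2-1, and its groups overlapped.

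The 5′ end of NLN overlaps that of SGTB on the opposite strand of chromosome 5, between 65722196 and 65723035. SGTB, a small co-chaperone, had 221, 304 and 274 counts in sgCtrl and 392, 484 and 363 in sgNF2-1 (log2 difference 0.64, SE 0.14, adjusted p = 0.00063 by edgeR's quasi-likelihood test). The strand setting of the counting is not given in the sources used here, so reads from the shared stretch cannot be told apart. The mean count of SGTB came to 40.4% of that of NLN.

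**Figure D2:**
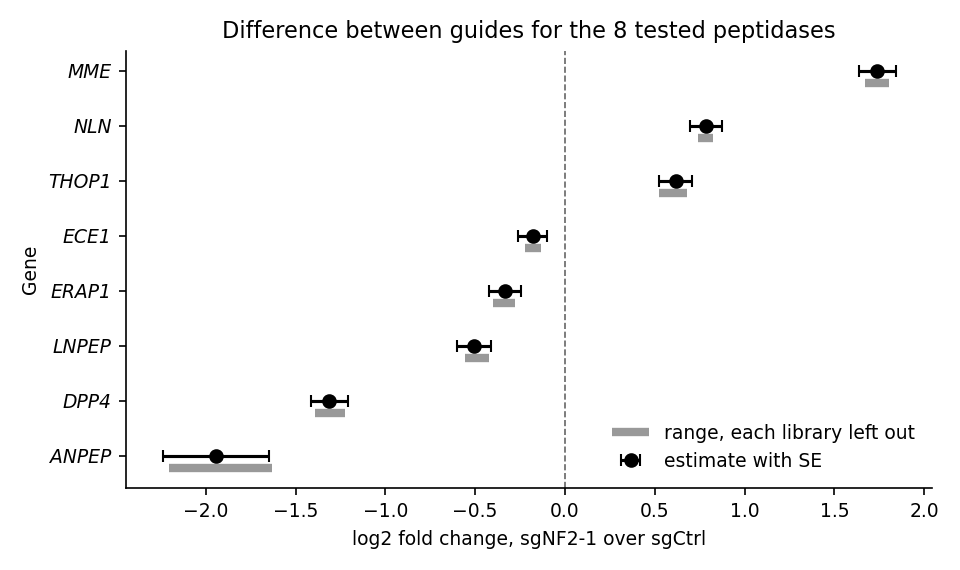
log2 difference of sgNF2-1 from sgCtrl for the 8 tested peptidases, with black points for the estimate, black bars for 1 SE and grey bars for the range over fits that omit 1 library each. MME ranged from 1.67 to 1.80, DPP4 from -1.39 to -1.22 and ANPEP, with the fewest counts, from -2.21 to -1.63.

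The 3 M1 aminopeptidases that passed the filter were lower in sgNF2-1, to different degrees. ANPEP (CD13, ENSG00000166825), which trims peptides at the cell surface, was counted 72, 94 and 66 times in sgCtrl and 29, 10 and 21 times in sgNF2-1. In CPM these were 4.57, 5.73 and 4.35 against 1.65, 0.648 and 1.47. Its log2 difference of -1.94 was the most negative of the 8 and had the largest SE, 0.30. The coefficient of variation in sgNF2-1 was 42.5%, at 10 to 29 counts per library, and what set this spread was not tested.

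LNPEP (ENSG00000113441), known as oxytocinase or insulin-regulated aminopeptidase, was at 72.6, 76.8 and 66.4 CPM in sgCtrl and 52.7, 54.4 and 45.0 CPM in sgNF2-1, a log2 difference of -0.50 (SE 0.09). ERAP1 (ENSG00000164307), which trims antigenic peptides in the endoplasmic reticulum, was at 71.1, 81.3 and 83.2 CPM in sgCtrl and 66.0, 63.3 and 57.4 CPM in sgNF2-1, a log2 difference of -0.33 (SE 0.09). The nearest ERAP1 libraries of the groups were 5.15 CPM apart, and those of LNPEP 12 CPM. ENPEP, which makes angiotensin III, had 1 count in sgNF2-1 replicate 2 and 0 elsewhere, below the limit of 3 counts, which is 0.170 to 0.211 CPM per library.

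ERAP1, ERAP2 and LNPEP are neighbours on chromosome 5, between 96760810 and 97037515, with CAST, the calpain inhibitor calpastatin, next to and overlapping ERAP1 on the opposite strand. ERAP2, which is not one of the 10, fell from 196.8 ± 3.40 to 126.5 ± 9.41 CPM (log2 difference -0.64, SE 0.08, adjusted p = 1.15e-06 by edgeR's quasi-likelihood test). CAST was at 330.8 ± 13.4 CPM in sgCtrl and 331.7 ± 25.5 CPM in sgNF2-1 (log2 difference 0.0041, SE 0.08, adjusted p = 0.977). The 3 aminopeptidase genes of the stretch were thus lower in all 3 sgNF2-1 libraries, and the libraries of CAST overlapped. CAST had 470% of the counts of ERAP1, and reads from the stretch they share, 96760810 to 96779595, cannot be assigned by strand here.

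DPP4 (ENSG00000197635, chr2:161992241-162074542) was at 64.5, 72.3 and 76.4 CPM in sgCtrl and 28.9, 31.9 and 25.1 CPM in sgNF2-1. The nearest libraries were 32.6 CPM apart, sgCtrl was 2.48-fold higher, and the log2 difference was -1.31 (SE 0.10). The antisense gene AC008063.1, across the start of DPP4, had 9, 12 and 8 counts in sgCtrl and 3, 0 and 2 in sgNF2-1. Within a library the FPKM of MME was 0.161 ± 0.00776 of that of DPP4 in sgCtrl and 1.34 ± 0.0506 times it in sgNF2-1, so the order of these 2 enzymes was opposite in the groups.

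ACE was close to the detection limit. It had 3, 4 and 4 counts in sgCtrl and 0, 1 and 0 in sgNF2-1, together 11 and 1. Scaled to the library totals, sgCtrl had 11.0 times the reads, with an exact 95% interval of 1.60 to 472.7 that covers counting error only.

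Levels of different genes were compared in FPKM, the deposited read numbers scaled to gene length and library depth. In sgCtrl the order was ECE1 at 53.0, DPP4 at 13.4, THOP1 at 11.6, ERAP1 at 9.37, LNPEP at 4.47, NLN at 3.39, MME at 2.16, ANPEP at 0.950 and ACE at 0.0263 FPKM, with ENPEP listed at 0. The libraries of DPP4 and THOP1 overlapped, and the other neighbours in this order did not. In sgNF2-1 the order was ECE1 at 46.4, THOP1 at 17.7, ERAP1 at 7.36, MME at 7.14, NLN at 5.79, DPP4 at 5.36, LNPEP at 3.12 and ANPEP at 0.242 FPKM. There ERAP1 overlapped MME, and NLN overlapped DPP4. MME moved from rank 7 to rank 4 and DPP4 from rank 2 to rank 6.

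**Figure D3:**
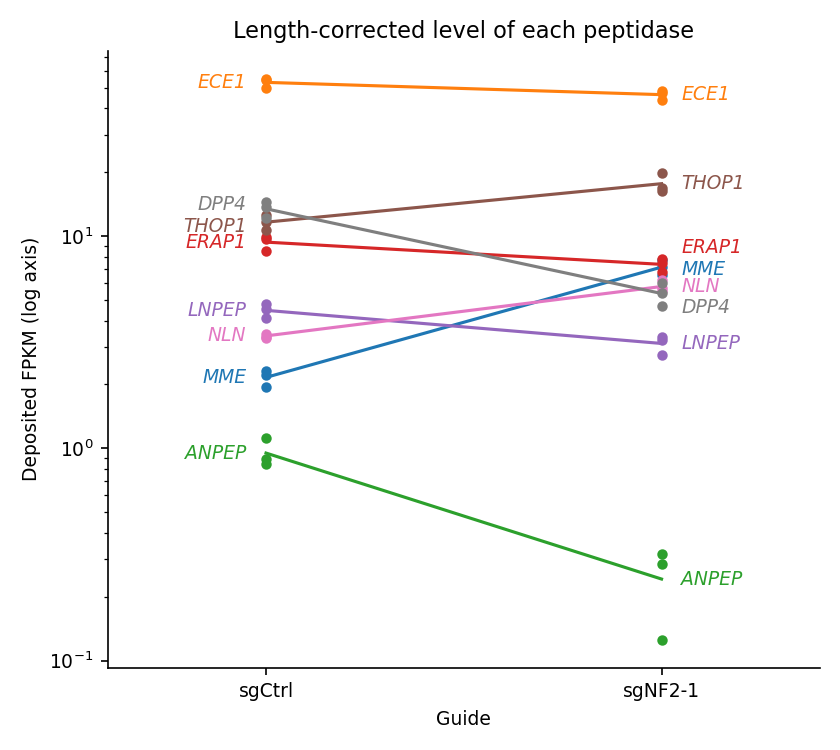
Deposited FPKM (log axis) of the 8 tested peptidases in sgCtrl and sgNF2-1, with points for libraries and lines joining the means of 3. MME (2.16 to 7.14) and DPP4 (13.4 to 5.36) cross, and ECE1 is the highest in both groups.

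The summed FPKM of the 10 genes was 98.4 ± 2.22 in sgCtrl and 93.1 ± 2.68 in sgNF2-1. ECE1 alone gave 53.8% ± 1.94 and 49.8% ± 1.14 of it. MME gave 2.19% ± 0.185 and 7.67% ± 0.618, and DPP4 13.7% ± 1.29 and 5.76% ± 0.666. The share of THOP1 was 11.8% ± 1.12 and 19.0% ± 2.16. MME, THOP1 and NLN together went from 17.2 ± 0.790 to 30.6 ± 1.19 FPKM, and the other 7 genes from 81.3 ± 2.81 to 62.5 ± 2.49 FPKM.

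MME, ANPEP and DPP4 are also surface markers of blood or stromal cells, and markers of such cells were read in the same libraries. The leukocyte marker PTPRC was at 0 counts in all 6 libraries. The summed level of the 6 blood markers was 136.0 to 149.7 CPM in sgCtrl and 65.5 to 72.7 CPM in sgNF2-1, nearly all of it CD14. The 6 fibroblast markers summed to 205.5 to 247.8 CPM in sgCtrl and 60.0 to 65.5 CPM in sgNF2-1. All 4 that passed the filter (COL1A1, COL1A2, COL3A1 and PDGFRB) were called lower, beside 16.6% of all tested genes. DCN and LUM were at 0 in every library. The 4 endothelial markers summed to 6.79 to 8.77 CPM in sgCtrl and 2.27 to 3.30 CPM in sgNF2-1. Of the 2 tested, 1 was called lower, beside the same 16.6%. The part of blood, fibroblast or endothelial cells in the levels of ANPEP and DPP4, which were lower in the same libraries, was not tested.

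Genes whose levels over the 6 libraries were nearest to MME were taken from 10316 tested genes with a mean of at least 5 CPM. Likeness was the mean absolute difference between log2 CPM values after each gene was centred on its sgCtrl mean. It is therefore set mostly by the difference between the groups, which also chose the members. It does not measure variation shared within a group. The log2 differences of the 5 ran from 1.665 (SYT7) to 1.93 (SESN2), beside 1.74 for MME. SYT7, a calcium sensor of vesicle fusion, was nearest at 0.079, followed by the pseudogene CEACAMP10 at 0.088, the oxytocin receptor gene OXTR at 0.094, PROSER2 at 0.118 and SESN2, a stress-induced regulator of mTORC1, at 0.126. OXTR stood at 12.3, 10.8 and 12.4 CPM in sgCtrl and 38.4, 42.3 and 37.0 CPM in sgNF2-1, and SESN2 went from a mean of 32.1 to 122.5 CPM. SYT7 (mean 3.48 CPM in sgCtrl and 11.1 CPM in sgNF2-1) and CEACAMP10 (2.76 and 9.94 CPM) reached the minimum of 5 CPM only through sgNF2-1. Reads of CEACAMP10 may be shared with related CEACAM genes. The values of the 5 and of MME come from the same 6 libraries.

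**Figure D4:**
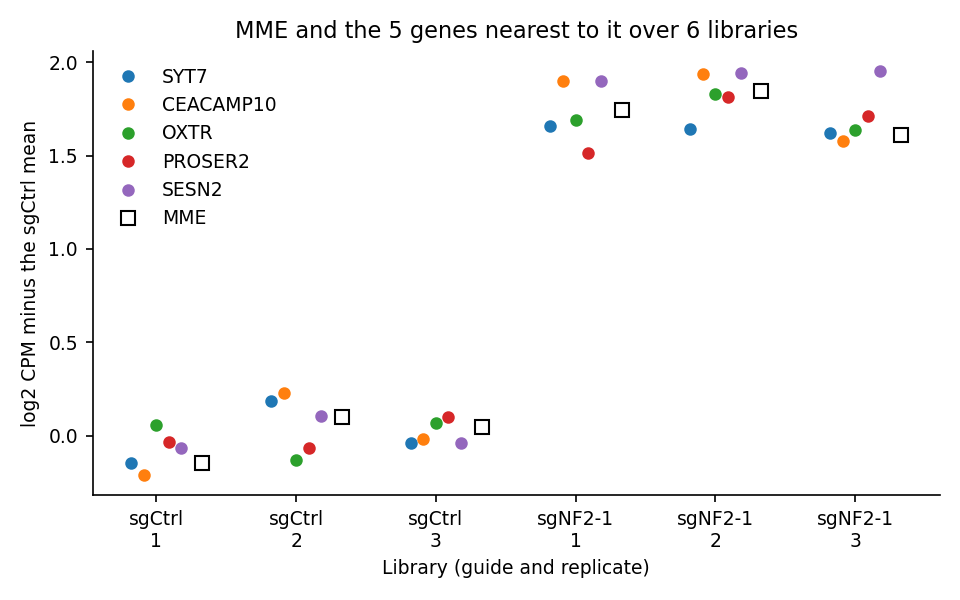
log2 CPM of MME (open squares) and of the 5 nearest genes (coloured points) in each library, as the difference from the gene's own sgCtrl mean. MME lies between -0.15 and 0.10 in sgCtrl and between 1.61 and 1.85 in sgNF2-1.

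Beyond the 10, the same fit covered 48 other peptidases of the same and related families, of which 31 were tested. In sgNF2-1, 7 rose and 8 fell, with 16 not called and a median log2 difference of -0.018. The shares, 22.6% higher and 25.8% lower, stand beside 17.7% and 16.6% of all tested genes. Among those that rose, DNPEP, an aspartyl aminopeptidase, went from 78.6 ± 6.70 to 108.1 ± 13.8 CPM (log2 difference 0.46, adjusted p = 0.000524), and RNPEPL1 from 155.3 ± 7.02 to 198.3 ± 13.6 CPM (0.35, adjusted p = 0.00153). The carboxypeptidases CPZ (0.68, SE 0.23) and PRCP (0.47, SE 0.14), the mitochondrial peptidase PITRM1 (0.30, SE 0.09) and the lysosomal DPP7 (0.28, SE 0.09) also rose.

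The largest fall in this list was that of PHEX, an M13 relative of MME known for its role in phosphate balance, from 3.45 ± 0.358 to 1.65 ± 0.141 CPM (log2 difference -1.06, SE 0.27, adjusted p = 0.00373). DPP8, a cytosolic relative of DPP4, fell by 0.74 on the log2 scale (SE 0.10, adjusted p = 4.25e-06), from 62.6 ± 5.90 to 37.5 ± 4.41 CPM. ERAP2 was described with its neighbours, and carboxypeptidase D (CPD, -0.45, SE 0.08) and the aminopeptidases C9orf3 (-0.45, SE 0.13) and LAP3 (-0.42, SE 0.08) fell too. The insulin-degrading enzyme IDE was at 72.4 ± 6.83 and 61.8 ± 3.65 CPM and was not called (adjusted p = 0.0559). The M13 genes MMEL1 and ECE2 were not tested, having at most 1 count in a library.

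Several of these calls were lost when 1 library was left out. The log2 difference of CPZ stayed between 0.63 and 0.74 in these fits, and that of PITRM1 between 0.26 and 0.36. CPZ lost its call without sgCtrl replicate 1 (edgeR adjusted p = 0.0553) or 2 (edgeR adjusted p = 0.0795) and without sgNF2-1 replicate 1 (edgeR adjusted p = 0.059) or 3 (edgeR adjusted p = 0.0627). PITRM1 lost it without sgCtrl replicate 2 (edgeR adjusted p = 0.0644) and without sgNF2-1 replicate 1 (edgeR adjusted p = 0.0526) or 2 (edgeR adjusted p = 0.0923). PRCP lost it without sgCtrl replicate 1 (edgeR adjusted p = 0.064) or 2 (edgeR adjusted p = 0.0703), C9orf3 without sgCtrl replicate 1 (edgeR adjusted p = 0.0541), and DPP7 without sgNF2-1 replicate 3 (edgeR adjusted p = 0.0875). The number that rose was 3 without sgCtrl replicate 2 and 4 without sgNF2-1 replicate 3. Calls of higher over all tested genes were 2016 and 2244 in these 2 fits, beside 2515 with every library.

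Peptide hormones are made from larger precursors by convertases, carboxypeptidases and an amidating enzyme. Of 20 such genes 11 were tested, 3 rose and 5 fell, with a median log2 difference of -0.38, which is 27.3% higher and 45.5% lower, beside 17.7% and 16.6% of all tested genes. Among those that fell was the convertase FURIN, by 0.38 on the log2 scale (SE 0.08, edgeR adjusted p = 0.00107). The carboxypeptidase CPE fell by 1.18 (SE 0.15, edgeR adjusted p = 1.48e-06) and the amidating enzyme PAM by 0.69 (SE 0.08, edgeR adjusted p = 4.6e-07). The convertases PCSK4 and PCSK7 were not called, and PCSK1, PCSK2 and PCSK5 were not tested. PAM went from 401.0 ± 15.6 to 248.3 ± 20.1 CPM and CPE from 14.7 ± 2.19 to 6.47 ± 0.314 CPM. SCG5, a chaperone of convertase 2 (PCSK2, at 0 CPM in every library), fell by 0.97 (SE 0.12), and the site-1 protease MBTPS1 by 0.51 (SE 0.08). PCSK6 rose from 1.04 ± 0.499 to 3.22 ± 0.719 CPM (log2 difference 1.61, SE 0.35). It was low in sgCtrl, at 1.08, 1.52 and 0.527 CPM, and passed the filter only with the sgNF2-1 libraries, where it was high. PCSK6 dropped out where at least 10 counts in every library were required. The granin-family precursor VGF rose from 4.44 ± 1.22 to 8.05 ± 1.66 CPM (0.85, SE 0.21).

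**Figure D5:**
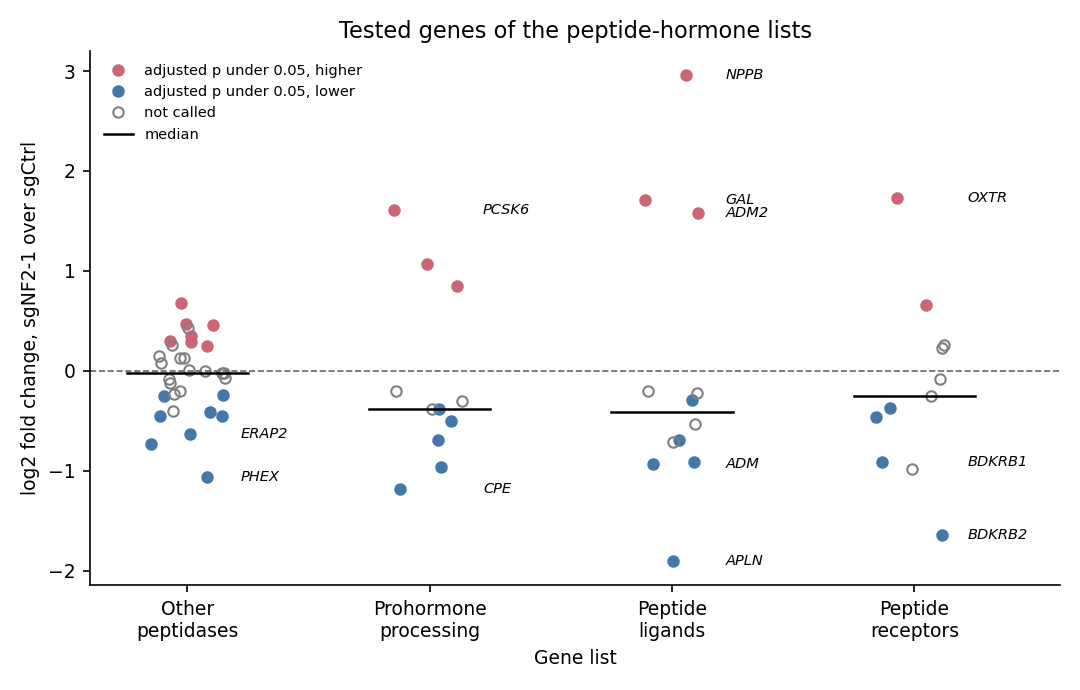
log2 difference of sgNF2-1 from sgCtrl for the tested genes of 4 lists: 31 other peptidases, 11 prohormone processing genes, 12 peptide ligands and 11 peptide receptors. Filled points have an adjusted p under 0.05 (red higher, blue lower), open points do not, and black lines mark medians, which lie at -0.018, -0.38, -0.41 and -0.25.

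Of 44 peptide ligand genes, 23 had no count in any library and 12 were tested, of which 3 rose (25%) and 5 fell (41.7%), beside 17.7% and 16.6% of all tested genes, with a median log2 difference of -0.41. GAL, the precursor of galanin, was at 10.9, 6.70 and 8.30 CPM in sgCtrl and 27.1, 25.5 and 32.5 CPM in sgNF2-1 (log2 difference 1.71, SE 0.15, adjusted p = 3.04e-09). ADM2, which encodes intermedin, was at 21.95, 18.8 and 16.1 CPM in sgCtrl and 54.4, 59.1 and 56.5 CPM in sgNF2-1 (1.58, SE 0.11, adjusted p = 6.96e-11). All 3 sgNF2-1 libraries were above every sgCtrl library for both. NPPB, whose B-type natriuretic peptide is a cardiac hormone, is the third that was called higher, and is named although its mean is under the minimum of 1 CPM for naming, after its values were seen. It had 2, 3 and 3 counts in sgCtrl, at or under the detection limit, and 27, 20 and 18 in sgNF2-1, so it passed the filter only through the group where it was high. Scaled to the library totals, sgNF2-1 had 8.14 times the reads, with an exact 95% interval of 3.89 to 19.6 for counting error only.

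APLN, the precursor of apelin, fell from 8.50, 8.89 and 7.91 CPM in sgCtrl to 1.93, 2.72 and 2.11 CPM in sgNF2-1 (log2 difference -1.91, SE 0.21, adjusted p = 9.33e-08). ADM, for adrenomedullin, fell by 0.94 (SE 0.12, adjusted p = 1.14e-06), from 24.9 ± 1.69 to 13.05 ± 0.571 CPM, opposite to its relative ADM2. PTHLH (-0.92, SE 0.33), ADCYAP1 (-0.69, SE 0.22) and APP (-0.29, SE 0.09), the precursor of amyloid-beta, also fell. The precursors of bradykinin (KNG1), substance P (TAC1) and neurotensin (NTS), which are substrates of MME, ACE, THOP1 or NLN, were at 0 counts in every library.

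Leaving out 1 library ended some of these calls. PTHLH lost its call without sgCtrl replicate 1 (edgeR adjusted p = 0.0738), 2 (edgeR adjusted p = 0.0974) or 3 (edgeR adjusted p = 0.0542) and without sgNF2-1 replicate 1 (edgeR adjusted p = 0.14) or 2 (edgeR adjusted p = 0.101). ADCYAP1 lost it without sgCtrl replicate 2 (edgeR adjusted p = 0.0689) or 3 (edgeR adjusted p = 0.0506) and without sgNF2-1 replicate 2 (edgeR adjusted p = 0.0538), and APP without sgCtrl replicate 1 (edgeR adjusted p = 0.0539) or 2 (edgeR adjusted p = 0.0658). The number of ligand genes that fell was 2 without sgCtrl replicate 2 and 3 without sgCtrl replicate 1, sgCtrl replicate 3 or sgNF2-1 replicate 2. Calls of lower over all tested genes were 1880, 2040, 2271 and 1942 in these fits, in that order, beside 2351 with every library.

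Of 52 peptide receptor genes 11 were tested, 2 rose (18.2%) and 4 fell (36.4%), beside 17.7% and 16.6% of all tested genes, and the median log2 difference was -0.25. OXTR, whose ligand oxytocin is cleaved by LNPEP, rose by a log2 difference of 1.73 (SE 0.12, adjusted p = 3.13e-11). Both bradykinin receptor genes fell. BDKRB2 was at 7.11, 8.04 and 7.05 CPM in sgCtrl and 2.61, 2.07 and 2.39 CPM in sgNF2-1 (log2 difference -1.64, SE 0.21, adjusted p = 1.02e-06), and BDKRB1 went from 30.1 ± 1.15 to 16.1 ± 1.97 CPM (-0.91, SE 0.12, adjusted p = 1.46e-06). No sgNF2-1 library of either receptor reached the sgCtrl range.

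SORT1, a neurotensin-binding sorting receptor, rose by 0.65 (SE 0.20), and ATP6AP2, the prorenin receptor (-0.37, SE 0.08), and RAMP1, a partner of the CGRP receptor (-0.46, SE 0.15), fell. The natriuretic peptide receptor NPR3 was at 1.19 ± 0.386 and 0.598 ± 0.436 CPM and was not called (adjusted p = 0.121), and the endothelin receptors EDNRA and EDNRB were not tested. SORT1 lost its call without sgNF2-1 replicate 1 (edgeR adjusted p = 0.0918), which left 1 receptor gene that rose. In that fit 2120 of all tested genes were called higher, beside 2515 with every library. RAMP1 lost it without sgCtrl replicate 1 (edgeR adjusted p = 0.12) and without sgNF2-1 replicate 1 (edgeR adjusted p = 0.0524) or 2 (edgeR adjusted p = 0.081).

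Promoter windows from RefSeq (GRCh38.p14), 250 bases before to 50 after a start, were searched on both strands for GGAATG, the core of the TEAD motif, because TEAD factors carry YAP and TAZ to DNA. All 10 genes had at least 1 window, 20 in all. The motif was in 1 window each of 4 genes, MME, THOP1, ERAP1 and ENPEP. It was in 16.7% of the 27305 genes and 14.0% of the 35116 windows searched. The matches in MME, THOP1 and ERAP1, which passed the filter on low counts, are shown with the motif in capitals and 20 bases on each side, read along the strand of the gene, since they fall in members of both directions.
MME (plus strand, chr3:155079433-155079478): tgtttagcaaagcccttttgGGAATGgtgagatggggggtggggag
THOP1 (plus strand, chr19:2785313-2785358): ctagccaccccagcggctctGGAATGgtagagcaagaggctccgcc
ERAP1 (minus strand, chr5:96814157-96814202): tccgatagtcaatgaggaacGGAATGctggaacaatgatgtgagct
The motif began 219 bases before 1 of the 4 RefSeq starts of MME, which lies inside the gene as the count table delimits it, and the windows of the other starts had none. It began 170 bases before the single start of THOP1 and 37 bases before 1 of 2 starts of ERAP1, one that lies upstream of the gene in the table. In ENPEP it began 42 bases after the start. MME and THOP1 were higher and ERAP1 lower in sgNF2-1, and NLN, which was higher, had no match in its window. The AP-1 motif TGANTCA was in windows of 9.4% of genes and the ATF4 element TGATGNAA in those of 4.5%, and in those of 0 of the 10. A match describes letters in a window and not a bound site, and its part in the differences between the groups was not tested.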

How the data were processed

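RNA from 3 sgCtrl and 3 sgNF2-1 samples, grouped by title, was sequenced by the authors as 150 bp paired-end reads. The submitters' processing notes list HISAT2, StringTie 1.3.3b, featureCounts 1.5.0-p3 and hg38. The authors deposited a table of raw counts and one of FPKM values, and the strand setting and the treatment of multi-mapping reads are not given in the sources used here. Counts were filtered with filterByExpr (minimum count 10, minimum total 15), TMM-normalized and fitted with edgeR 4.0.16 (R 4.3.3) by group, with Benjamini-Hochberg adjustment over the 14179 genes kept. The methods of the study name DESeq2, tried here as an alternative (1.42.0), and the procedure was tested on simulated data. The deposited FPKM values were used only for levels between genes and were not tested. Sequences were read with Biopython 1.88, and reading frames aligned globally with BLOSUM62.

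The members and lists were chosen with earlier results of these data known. Named genes are the 10 members, NF2, genes overlapping a member, the 5 nearest to MME, and from each list up to 6 per direction with an adjusted p under 0.05 and a mean of at least 1 CPM. The alternatives were DESeq2, another scaling in edgeR (the size factors of DESeq2, or plain totals), fits without the filter or with a minimum of 10 counts per library, protein-coding genes, a replicate block, a log2 fold limit of 0.5, RPKM recomputed from counts for the order of levels, and leaving out each library. Precision is limited by 3 libraries a group, and intervals cover counting error only. A few genes that this rule or the marker lists select are not reported here.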

Additional observations from a re-analysis of the deposited data

How the results depend on the processing

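The log2 differences of the 8 tested peptidases and of NF2 kept their sign, and NF2 its call, in each of 13 alternatives. With a log2 fold limit of 0.5 in addition to the adjusted p, 1194 genes were called higher and 1322 lower, 1 of the other peptidases rose and 3 fell, and 2 peptide receptor genes fell. With each library left out, 3 to 7 of the other peptidases rose, 2 to 5 ligand genes fell and 1 to 2 receptor genes rose. In the same fits the calls over all tested genes were fewer too, 2016 to 2514 higher and 1880 to 2271 lower. Whether the replicate numbers pair the samples is not stated in the labels and was not settled here. The same-number correlations of deviations were -0.032, 0.057 and 0.050, and those of the other pairs ran from -0.107 to 0.060. With a replicate block 2698 genes were called higher and 2501 lower, beside 2515 and 2351 without it. MME was at 1.74 with the block, and the SE of APP was 0.062 with it and 0.088 without. Among the fits with another tool, scaling, filter or block, SGTB and the list genes named as called kept their calls, except that PCSK6 and NPPB could not be fitted with at least 10 counts in every library. The losses without 1 library are given beside each gene, and their cause was not tested. The order of FPKM levels was unaltered in sgCtrl and kept 9 to 10 of 10 genes at their rank in sgNF2-1. With few counts, as in ANPEP, ACE and ENPEP, depth limits the size of a difference that can be read, and only 1 guide and 1 line were measured.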
